A study of Mus musculus with 4 samples.

Results

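The genes of glycolysis and of lactate and pyruvate handling were read in single-cell libraries of mouse long bone with and without endothelial *Lats2*. The set holds 30 genes, chosen by symbol, that take up glucose, break it down to pyruvate, interconvert pyruvate and lactate, export lactate, and admit pyruvate to the mitochondrion. They are 30 of the 53703 features of the deposited tables, and all 30 were found. In mutants, 9 of them rose in all 6 stromal cell types: *Pfkl*, *Aldoa*, *Tpi1*, *Gapdh*, *Pgk1*, *Pgam1*, *Eno1*, *Pkm* and *Ldha*. Of all genes, 3512 were tested in all 6 types and 29 of them (0.826%) were higher in each, and 13 members were among those tested. *Pfkl* in BMSCs and OBs and *Pgk1* in BMSCs were tested only because mutants passed a filter on detection. With a filter on the mean of both genotypes, chosen after seeing the data, 27 of 3181 genes (0.849%) were higher in all 6, and so were 8 of the 11 members tested, without *Pfkl*. Levels are counts per 10000 UMIs (unique molecular identifiers, 1 per captured RNA molecule), summed over the barcodes (droplets) of a cell type in a library. Measured values are given with the mutant libraries first, in the order of their replicate numbers.

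The libraries were made with 10x Genomics Chromium V3 from cells of the metaphysis of femur and tibia, depleted of blood cells, from 12-week-old C57BL/6 mice of both sexes. The 2 mutant libraries, genotype Lats2iECKO, came from mice with loxP-flanked *Lats2* and the *Cdh5-CreERT2* transgene, which expresses a tamoxifen-inducible Cre recombinase in endothelial cells. The 2 control libraries came from Cre-negative littermates. The labels call them untreated, whereas the methods of the study give tamoxifen to both genotypes as young mice. The transgene is active in endothelial cells, while the genes below were read in all cell types. LATS2 is a kinase of the Hippo pathway, which restrains the coactivators YAP1 and TAZ.

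Cell types were assigned to each barcode from marker genes, none of which is among the 30. A barcode needed at least 1000 UMIs and 800 detected features, at least 3 markers of a type, and a clear lead of that type over the next. The gates held 2838 endothelial cells (ECs), 5131 bone marrow stromal cells (BMSCs), 1888 osteoblasts (OBs), 1479 smooth muscle cells (SMCs), 7325 chondrocytes (CHOs) and 635 fibroblasts (FBs), and 14.5% of barcodes stayed ungated. A library gave from 123 barcodes of a type (FBs) to 2259 (CHOs). The FB gate was not clearly apart from CHOs. In it the 12 CHO markers summed to 135 and 116 against 114 and 109. Its own 8 markers summed to 71.6 and 68.6 against 61.4 and 58.2. In CHOs the CHO markers summed to 463 and 459 against 653 and 656. *Lats2* itself stood in ECs at 0.922 and 0.982 against 1.34 and 1.22 (log2 fold change -0.36 ± 0.0848, adjusted p = 0.0022, where ± gives the standard error). The counts cover the whole gene, so a transcript without the deleted exons is still counted, and *Lats2* was not called in any of the other 5 types. Library totals ran from 69636600 to 85899079 UMIs, and 66 barcode sequences occurred in more than 1 library among the 24599 kept.

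Glycolysis splits glucose into 2 molecules of pyruvate in the cytosol and yields ATP without oxygen. Lactate dehydrogenase turns pyruvate into lactate, which regenerates the NAD+ that *Gapdh* needs, and monocarboxylate transporters carry lactate out. The alternative route takes pyruvate through the mitochondrial pyruvate carrier to pyruvate dehydrogenase, which pyruvate dehydrogenase kinases switch off. Growth plate cartilage has no vessels, its chondrocytes are known to rely on glycolysis, and many genes of this set are textbook targets of the hypoxia-inducible factors HIF1A and HIF2A.

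These factors bind a short core, ACGTG or GCGTG. The 250 bases upstream of the annotated start (RefSeq, GRCm38.p6, the build of the promoter table and not that of the counts) are shown for 6 members on which results below turn, on the gene's strand, with each core on either strand in capitals. Where a gene had several starts, as *Ldha*, *Aldoc* and *Mpc1* did, the start with the most cores was taken. The numbers of genes with a core below use that start too, for members and all genes alike. They are *Pgk1*, *Slc16a3* and *Aldoc*, which were higher in mutant CHOs, *Ldha* and *Tpi1*, with the largest fitted changes among members tested in SMCs and ECs, and *Mpc1*, a member that fell.
Pgk1, chrX:106186850-106187099, plus strand: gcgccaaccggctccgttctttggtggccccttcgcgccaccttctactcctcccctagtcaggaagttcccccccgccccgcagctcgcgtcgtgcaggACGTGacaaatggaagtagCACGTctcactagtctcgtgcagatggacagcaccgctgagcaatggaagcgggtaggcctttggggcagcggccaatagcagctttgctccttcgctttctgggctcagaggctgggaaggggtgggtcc
Ldha, chr7:46845554-46845803, plus strand: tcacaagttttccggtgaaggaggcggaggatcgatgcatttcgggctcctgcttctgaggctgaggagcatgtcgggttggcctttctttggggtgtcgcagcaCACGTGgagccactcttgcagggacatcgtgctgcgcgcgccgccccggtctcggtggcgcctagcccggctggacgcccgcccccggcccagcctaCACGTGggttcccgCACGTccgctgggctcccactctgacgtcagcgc
Slc16a3, chr11:120948817-120949066, plus strand: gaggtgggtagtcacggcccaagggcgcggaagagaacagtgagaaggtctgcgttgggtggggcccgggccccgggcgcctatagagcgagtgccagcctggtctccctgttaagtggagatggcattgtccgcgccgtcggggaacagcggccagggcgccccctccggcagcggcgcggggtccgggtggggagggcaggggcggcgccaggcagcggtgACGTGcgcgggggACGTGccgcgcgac
Aldoc, chr11:78322823-78323072, plus strand: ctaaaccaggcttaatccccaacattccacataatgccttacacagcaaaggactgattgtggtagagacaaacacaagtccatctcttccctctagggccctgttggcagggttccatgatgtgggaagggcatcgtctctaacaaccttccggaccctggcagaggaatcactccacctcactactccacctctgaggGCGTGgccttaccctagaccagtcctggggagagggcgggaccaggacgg
Tpi1, chr6:124814159-124814408, minus strand: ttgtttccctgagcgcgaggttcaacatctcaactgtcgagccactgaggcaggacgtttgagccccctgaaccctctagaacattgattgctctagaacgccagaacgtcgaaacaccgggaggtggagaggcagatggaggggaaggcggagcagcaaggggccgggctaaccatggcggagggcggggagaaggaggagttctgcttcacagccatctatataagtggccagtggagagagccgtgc
Mpc1, chr17:8283537-8283786, plus strand: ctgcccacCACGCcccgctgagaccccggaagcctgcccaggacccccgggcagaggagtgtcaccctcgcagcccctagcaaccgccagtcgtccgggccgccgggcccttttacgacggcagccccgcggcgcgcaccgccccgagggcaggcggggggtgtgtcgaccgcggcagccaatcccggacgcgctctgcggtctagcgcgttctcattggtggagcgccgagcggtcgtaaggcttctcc
In these stretches *Ldha* held 5 cores, counting both strands and with CACGTG counted on each, *Pgk1* and *Slc16a3* 2 each, *Aldoc* and *Mpc1* 1 each and *Tpi1* 0. Over the whole window of the table, which runs from 250 bases before to 50 after the start, at least 1 core was present in 26 of the 29 members matched (89.7%), for 12628 of all 27025 genes in the table (46.7%) and for 4685 of the 6738 genes tested in a main type (69.5%). Counts of 2 or more were present in 19 of the 29 members (65.5%), in 22.9% of all genes and in 39.8% of the genes tested. *Slc2a3* was not matched. A match of these letters is no evidence of binding, and a link between cores and the members' changes was not tested.

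The summed level of the 30 genes was higher in both mutant libraries than in both controls in each main type. In CHOs it was 72.6 and 70.5 against 38.1 and 39.2, a ratio of means of 1.85. For ECs the sums were 35.3 and 32.4 against 16.9 and 18.1, a ratio of 1.94. OBs had 19.8 and 21.0 against 11.9 and 12.2, a ratio of 1.69. Median UMIs per OB barcode were 9462 and 11542 against 15013 and 16313, and their part in the OB ratio was not tested. The means in ECs were 33.9 ± 2.07 against 17.5 ± 0.821 (SD, n = 2), and the ratios of ECs and CHOs were the highest of the 6. BMSCs had 27.9 and 24.1 against 15.8 and 16.2, a ratio of 1.62. FBs stood at 50.8 and 46.4 against 34.5 and 33.4, a ratio of 1.43. SMCs, with 36.6 and 36.3 against 25.7 and 28.2, had the lowest ratio, 1.35, and 0.995 when the 9 members above were left out. These 9 were the members called higher in SMCs, so a ratio near 1 without them follows from how they were picked. No p is given for these sums, since 2 libraries against 2 cannot reach an exact permutation p under 0.333, and in a sum over a class fewer cells of a kind and less RNA per cell cannot be told apart.

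**Figure D1:**
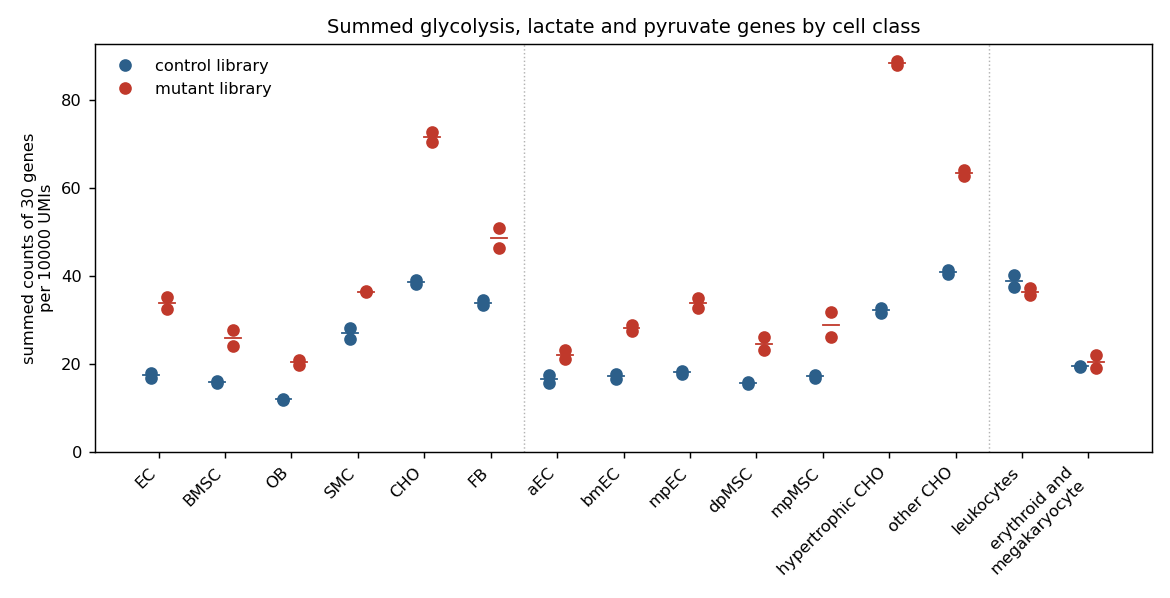
Each point is 1 library, and its height is the summed counts of the 30 genes per 10000 UMIs in the class named on the x axis, with a short line at the mean of each genotype. The 6 main types and their 7 subclasses have both mutant points above both controls, with hypertrophic CHOs farthest apart (88.8 and 87.8 against 31.6 and 32.9), while mutant leukocytes lie slightly below their controls and erythroid and megakaryocyte barcodes overlap around 20.

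Single genes were tested in each type with edgeR's quasi-likelihood test on the 4 library sums, and a gene was called where its p, adjusted by Benjamini-Hochberg over all genes of the type, did not exceed 0.05. Only genes with counts in at least 20% of the barcodes of either genotype were tested. In ECs 17 of the 30 members passed this filter, 15 were higher and 0 lower, against 30.1% of all genes higher and 30.6% lower. In CHOs 24 were tested, 19 were higher and 1 lower (all genes 32% and 31.8%). In BMSCs 13 of 17 were higher and 0 lower, against 21.7% and 19.2% of all genes. In these 3 types all genes were called about as often in either direction, whereas among the members only *Mpc1* in CHOs was lower. In OBs 12 of 19 were higher and 0 lower, where only 7.78% and 3.95% of all genes were called. In FBs it was 10 of 18 higher and 0 lower, against 1.81% and 1.27%. In SMCs 9 of 16 were higher and 1 lower, against 24.8% and 24.5%. The count in FBs was the least stable, with 4 higher without mutant replicate 1, 5 without control replicate 1 and 6 without control replicate 2, and 6 with DESeq2 or with a stricter gate. The median log2 fold change of the members tested was 0.97 in ECs, 0.80 in BMSCs, 0.69 in OBs, 0.43 in SMCs, 0.89 in CHOs and 0.51 in FBs, while that of all genes lay within 0.01 of 0 in each type.

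The filter admits a gene that is detected often enough in mutants alone, so its test is not independent of its level. This applied to *Slc2a1*, *Pfkfb3* and *Pdha1* in ECs, *Pfkl* and *Pgk1* in BMSCs, *Pfkl* and *Pfkfb3* in OBs, *Aldoc* in CHOs and *Hk2* in FBs, and to none in SMCs, and of these *Pfkfb3* and *Pdha1* in ECs and *Hk2* in FBs were not called. Among members that did not depend on it, 14 of 14 tested in ECs, 11 of 15 in BMSCs, 10 of 17 in OBs, 18 of 23 in CHOs and 10 of 17 in FBs were higher. Their median log2 fold changes were 0.97, 0.57, 0.66, 0.89 and 0.52 in the same order. Genes of the whole table that passed it in both genotypes were higher in 27.7% of cases in ECs, 21.9% in BMSCs, 7.98% in OBs, 33.5% in CHOs and 1.69% in FBs. That set also lacks genes that passed through controls alone, which the counts of members keep, such as *Pdk3* in BMSCs and OBs. *Pfkm*, *Eno2* and *Pdk2* passed it in no main type. Their levels were at most 0.135, 0.0736 and 0.201 per 10000 UMIs in any library of these types.

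**Figure D2:**
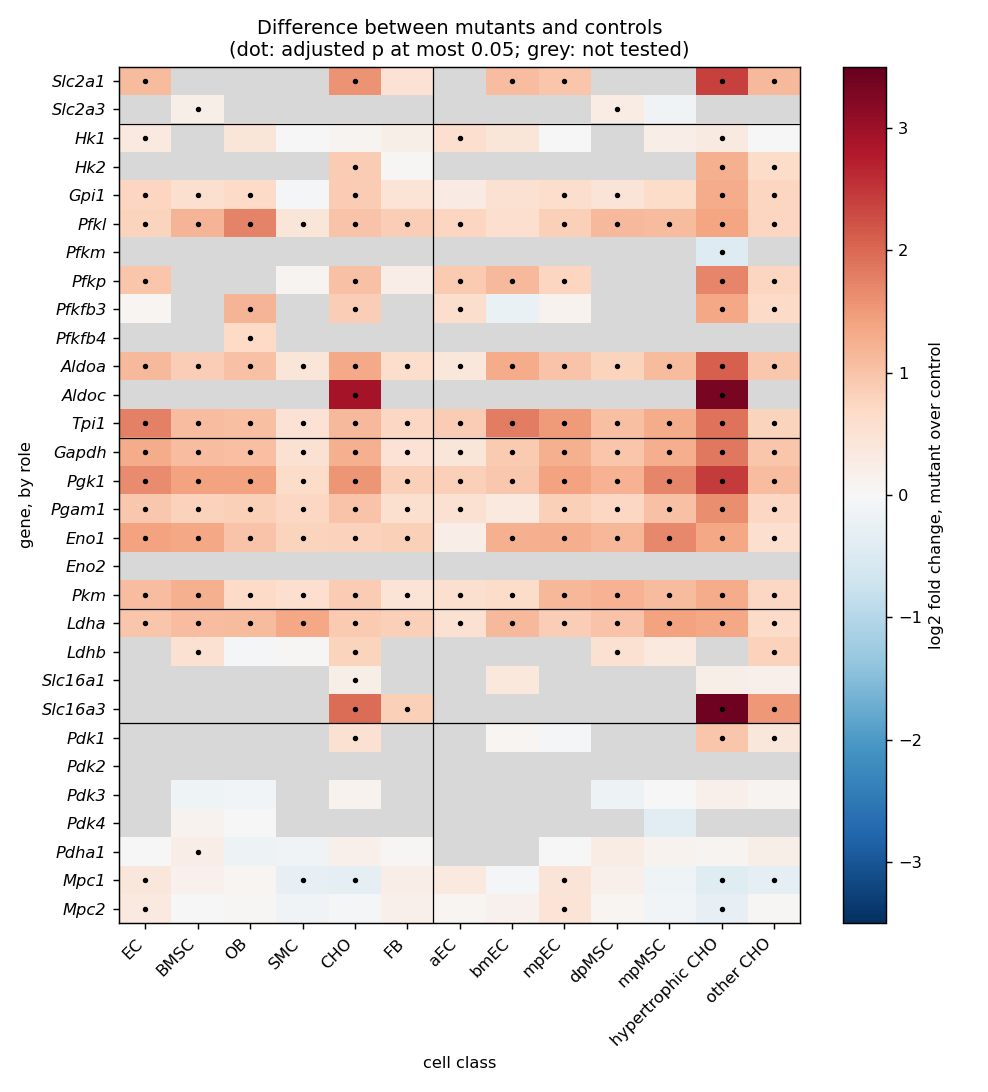
Rows are the 30 genes ordered by role and columns the 6 main types, then 7 subclasses, and the colour gives the log2 ratio of mutant to control from the fit, with a dot where a gene was called and grey where a gene was not tested. The rows of *Aldoa*, *Tpi1*, *Gapdh*, *Pgk1*, *Pkm* and *Ldha* have red dots in all 13 columns, and the blue dots are *Mpc1* in SMCs and the CHO classes and *Pfkm* and *Mpc2* in hypertrophic CHOs.

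Glucose enters through the facilitative transporters GLUT1 (*Slc2a1*) and GLUT3 (*Slc2a3*), and the 2 genes had different cell types. *Slc2a1* in ECs had 0.631 and 0.534 against 0.281 and 0.276, and was tested there through mutant detection alone (28.5% of barcodes against 15.4%). CHOs had 1.31 and 1.28 against 0.46 and 0.461 (log2 fold change 1.57 ± 0.0456, adjusted p = 4.41e-11). FBs stood at 0.512 and 0.483 against 0.391 and 0.334, without a call (adjusted p = 0.156). In BMSCs, OBs and SMCs the gene was under the filter, with both mutants above both controls in each, as in OBs with 0.137 and 0.102 against 0.011 and 0.00946. *Slc2a3* was tested only in BMSCs, where control levels were highest, and was 0.878 and 0.822 against 0.787 and 0.74 there (log2 fold change 0.22 ± 0.0752, adjusted p = 0.0329). Its level in SMCs, below the filter, was 0.299 and 0.292 against 0.16 and 0.158.

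The preparatory enzymes, from hexokinase to triose phosphate isomerase, spend ATP to make the 3-carbon sugars. Their 11 genes together were 1.84 times as high in mutant as in control ECs, and the ratio was 1.73 in BMSCs, 1.95 in OBs, 1.24 in SMCs, 1.96 in CHOs and 1.40 in FBs. Hexokinases trap glucose in the cell, and *Hk1*, the broadly expressed form, rose in ECs (0.868 and 0.888 against 0.747 and 0.711, log2 fold change 0.33 ± 0.0787, adjusted p = 0.00238) and was not called in the other 4 types where it was tested. The inducible *Hk2* rose in CHOs, with 1.07 and 1.16 against 0.663 and 0.628 (log2 fold change 0.88 ± 0.0516, adjusted p = 1.87e-08), and stood at 0.324 and 0.414 against 0.357 and 0.375 in FBs, where the groups overlapped. *Gpi1*, glucose phosphate isomerase, rose in ECs, BMSCs, OBs and CHOs with log2 fold changes of 0.75, 0.57, 0.66 and 0.90. SMCs and FBs were not called, and in SMCs *Gpi1* stood at 1.54 and 1.61 against 1.55 and 1.74, with overlapping groups.

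Phosphofructokinase makes the committed step, and its liver-type gene *Pfkl* was called higher in all 6 types. It stood in OBs at 0.304 and 0.275 against 0.0759 and 0.0946 and in BMSCs at 0.698 and 0.71 against 0.312 and 0.332, and in both it was tested through mutant detection alone (27.3% of barcodes against 12.4% in OBs, 31.5% against 18.4% in BMSCs). SMCs had 0.704 and 0.684 against 0.471 and 0.564 (log2 fold change 0.43 ± 0.139, adjusted p = 0.0118), and ECs, CHOs and FBs had log2 fold changes of 0.77, 0.99 and 0.86. The platelet-type gene *Pfkp* rose in ECs, 0.959 and 0.939 against 0.523 and 0.49 (log2 fold change 0.97 ± 0.0791, adjusted p = 2.28e-07), and in CHOs, 1.87 and 1.87 against 0.971 and 0.99 (log2 fold change 1.02 ± 0.0422, adjusted p = 8.78e-10). FBs, which had the highest control level of *Pfkp*, were not called (2.34 and 2.05 against 1.9 and 1.94, adjusted p = 0.304). PFKFB3 and PFKFB4 set the level of fructose 2,6-bisphosphate, the activator of phosphofructokinase. *Pfkfb3* rose in CHOs, 0.493 and 0.548 against 0.306 and 0.304 (log2 fold change 0.86 ± 0.0634, adjusted p = 1.45e-07), and stood in OBs, where only mutants passed the filter, at 0.299 and 0.222 against 0.121 and 0.102, while ECs showed 0.456 and 0.403 against 0.43 and 0.416 and overlapped (adjusted p = 0.516). *Pfkfb4* was tested in OBs alone and rose there, 0.268 and 0.268 against 0.186 and 0.145 (log2 fold change 0.69 ± 0.174, adjusted p = 0.0158).

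Aldolase A and triose phosphate isomerase, which split the 6-carbon sugar and interconvert the products, rose in every main type. *Aldoa* stood at 3.26 and 3.08 against 1.45 and 1.58 in ECs, at 3.36 and 2.98 against 1.8 and 1.83 in BMSCs and at 1.54 and 1.58 against 0.772 and 0.77 in OBs. Its levels were 5.39 and 5.46 against 3.85 and 4.31 in SMCs, 6.02 and 5.82 against 2.48 and 2.5 in CHOs and 5.77 and 5.5 against 3.91 and 3.64 in FBs. The log2 fold changes of *Aldoa* ran from 0.42 in SMCs (adjusted p = 5.12e-05) to 1.34 in CHOs (adjusted p = 1.45e-10), and no groups overlapped. *Tpi1* had its largest change in ECs, 1.83 and 1.67 against 0.532 and 0.546 (log2 fold change 1.76 ± 0.087, adjusted p = 1.79e-09). It was 2.23 and 2.06 against 1.04 and 1.09 in BMSCs, 1.25 and 1.5 against 0.636 and 0.686 in OBs and 2.95 and 2.75 against 1.88 and 2.18 in SMCs, with log2 fold changes of 1.07, 1.06 and 0.49. CHOs had 5.73 and 5.61 against 2.65 and 2.88 and FBs 3.33 and 3.03 against 2.07 and 1.92 (1.12 and 0.72). The brain-type aldolase gene *Aldoc* was a gene of CHOs in these data, with levels of at most 0.0308 in any library of the other 5 types. In CHOs it stood at 0.485 and 0.443 against 0.0643 and 0.0668, and it was tested through mutant detection alone (28.2% of barcodes against 7.82%).

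The 6 genes from *Gapdh* to *Pkm*, whose enzymes return ATP and end at pyruvate, were raised 2.27 times in ECs, 2.12 times in BMSCs, 1.90 times in OBs, 1.52 times in SMCs, 1.97 times in CHOs and 1.47 times in FBs. *Gapdh*, which reduces NAD+, contributed the most UMIs to the rise of the summed members in 4 of the types, with 25.9% of the difference in ECs, 16.4% in BMSCs, 17.7% in OBs and 18.4% in CHOs. *Gapdh* stood in ECs at 7.73 and 7.09 against 2.94 and 3.39 (log2 fold change 1.29 ± 0.0687, adjusted p = 3.45e-09). CHOs had 11.1 and 10.8 against 4.7 and 5.04 (log2 fold change 1.25 ± 0.049, adjusted p = 5.42e-10). In BMSCs *Gapdh* was 3.47 and 3.0 against 1.47 and 1.74, in OBs 2.61 and 3.16 against 1.38 and 1.42, in SMCs 5.8 and 5.65 against 3.76 and 4.19 and in FBs 8.38 and 6.97 against 5.51 and 5.58, with log2 fold changes of 1.08, 1.05, 0.53 and 0.52. A gene often used as a constant reference was therefore among the called members of each type.

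*Pgk1*, whose enzyme makes the first ATP of the pathway, had a larger fitted change than *Gapdh* in all 6 types, though the pair was not tested against each other. *Pgk1* stood in ECs at 1.67 and 1.31 against 0.502 and 0.476 (log2 fold change 1.66 ± 0.112, adjusted p = 3.27e-08). CHOs had 5.47 and 5.18 against 1.91 and 1.94 (log2 fold change 1.55 ± 0.0478, adjusted p = 7.04e-11). OBs had 0.954 and 1.07 against 0.375 and 0.386 (log2 fold change 1.42 ± 0.0955, adjusted p = 7.73e-08). In each of these the lower mutant library lay at more than 2 times the higher control. BMSCs, where only mutants passed the filter, showed 1.02 and 0.703 against 0.333 and 0.348, FBs 2.18 and 1.86 against 1.24 and 1.09 (log2 fold change 0.84) and SMCs 1.19 and 1.24 against 0.729 and 0.83 (0.65). *Pgam1*, phosphoglycerate mutase, was 1.42 and 1.16 against 0.636 and 0.767 in ECs, 1.12 and 0.923 against 0.615 and 0.614 in BMSCs and 1.08 and 0.912 against 0.558 and 0.545 in OBs. Its levels were 1.61 and 1.77 against 0.999 and 1.07 in SMCs, 5.25 and 4.97 against 2.7 and 2.71 in CHOs and 2.33 and 1.85 against 1.51 and 1.44 in FBs. All 6 were called, with log2 fold changes from 0.55 in FBs (adjusted p = 0.0343) to 1.00 in CHOs.

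Enolase 1, which makes phosphoenolpyruvate, had its largest changes in ECs and BMSCs. *Eno1* stood in ECs at 2.6 and 2.26 against 0.937 and 0.985 (log2 fold change 1.40 ± 0.0815, adjusted p = 7.89e-09). BMSCs had 1.98 and 1.37 against 0.689 and 0.68 (log2 fold change 1.35 ± 0.126, adjusted p = 2.94e-06), OBs 1.31 and 1.17 against 0.594 and 0.632 and SMCs 2.34 and 2.08 against 1.3 and 1.28. CHOs, with 8.31 and 7.94 against 4.95 and 4.98, and FBs, with 5.27 and 4.76 against 2.98 and 2.79, had the highest control levels of the 6 and log2 fold changes of 0.80 and 0.84. Between 14.5% and 25.4% of the *Eno1* entries per library were not whole numbers, because reads were shared with other loci, so its level depends on that sharing. *Pkm*, pyruvate kinase, stood at 5.04 and 4.58 against 2.33 and 2.4 in ECs, 1.66 and 1.32 against 0.639 and 0.666 in BMSCs and 2.49 and 2.68 against 1.62 and 1.65 in OBs. In SMCs *Pkm* was 3.29 and 3.55 against 2.26 and 2.36, in CHOs 7.74 and 7.52 against 4.34 and 4.4 and in FBs 6.8 and 6.22 against 4.94 and 4.69. Its log2 fold change was highest in BMSCs, 1.26 (adjusted p = 6.06e-07), and lowest in FBs, 0.48 (adjusted p = 0.0121). The counts do not separate the muscle and embryonic splice forms of *Pkm*.

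**Figure D3:**
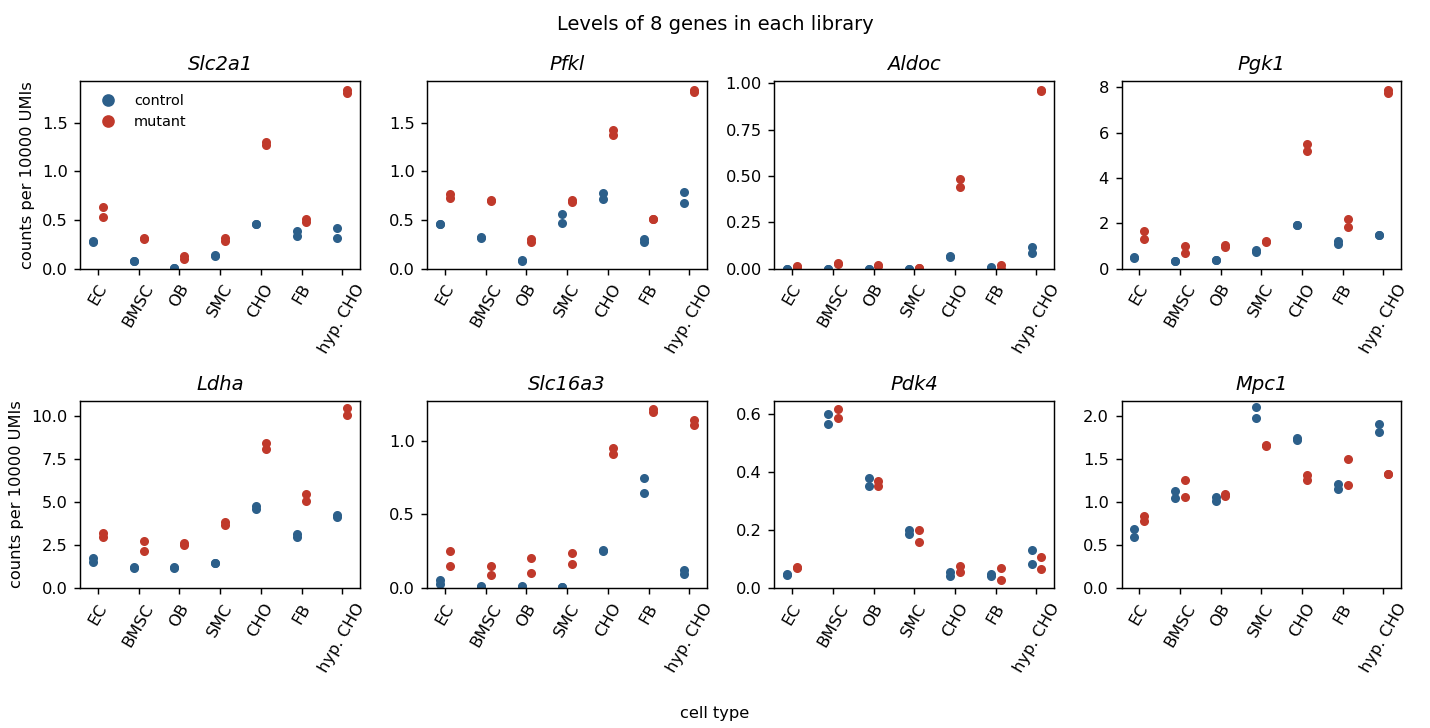
Each panel shows 1 gene, each point 1 library, and the y axis gives counts per 10000 UMIs from 0 in the 6 main types and in hypertrophic CHOs. Mutant points stand clear above control points for *Slc2a1*, *Pfkl*, *Pgk1*, *Ldha* and *Slc16a3* in nearly every class shown and for *Aldoc* in the CHO classes, those of *Pdk4* lie with the controls, and those of *Mpc1* lie below them in SMCs and CHOs.

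*Ldha*, whose subunit favours the reduction of pyruvate to lactate, had the largest fitted change among members tested in SMCs, 3.87 and 3.68 against 1.49 and 1.48 (log2 fold change 1.35 ± 0.0868, adjusted p = 6.80e-13), and carried 24.3% of the summed difference there. It stood at 3.24 and 2.97 against 1.53 and 1.75 in ECs, 2.73 and 2.16 against 1.23 and 1.17 in BMSCs and 2.5 and 2.63 against 1.18 and 1.23 in OBs, with log2 fold changes of 0.98, 1.09 and 1.09. CHOs had 8.45 and 8.11 against 4.6 and 4.75 (0.91) and FBs 5.49 and 5.08 against 3.17 and 3.0 (0.82). *Ldhb*, whose subunit favours the return to pyruvate, rose in BMSCs, 0.816 and 0.766 against 0.591 and 0.555 (log2 fold change 0.53 ± 0.0778, adjusted p = 1.71e-04), and in CHOs, 0.359 and 0.41 against 0.228 and 0.245 (log2 fold change 0.79 ± 0.0759, adjusted p = 1.77e-06). SMCs, which had the highest control level of *Ldhb*, showed 0.89 and 0.877 against 0.842 and 0.885 and overlapping groups (adjusted p = 0.799), and OBs overlapped too (adjusted p = 0.928).

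The lactate exporter MCT4 (*Slc16a3*) was called wherever it was tested. In CHOs it rose from 0.254 and 0.256 to 0.948 and 0.908 (log2 fold change 1.95 ± 0.0534, adjusted p = 3.35e-11). FBs, which had the highest control level, had 1.21 and 1.2 against 0.648 and 0.75 (log2 fold change 0.83 ± 0.139, adjusted p = 0.00299). The other 4 types were under the filter, and *Slc16a3* stood there at 0.251 and 0.152 against 0.0322 and 0.0552 in ECs, 0.151 and 0.0893 against 0.00946 and 0.0128 in BMSCs, 0.101 and 0.207 against 0.0133 and 0.0102 in OBs and 0.239 and 0.163 against 0.00628 and 0.0121 in SMCs. Both mutant libraries were above both controls in each of these 4, from low control levels. MCT1 (*Slc16a1*), the transporter often linked to lactate uptake, was tested in CHOs alone and rose slightly, 0.217 and 0.198 against 0.186 and 0.197 (log2 fold change 0.20 ± 0.0722, adjusted p = 0.0284), with 1 mutant library at the level of the higher control. The mutant excess of *Slc16a3* in CHOs was therefore larger than that of *Slc16a1* by the fitted values, though this pair was not tested against each other.

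Of the 7 genes at the entry of pyruvate to the mitochondrion, 2 of 3 tested were called higher in ECs (30.1% of all genes), 1 of 5 in BMSCs (21.7%) and 1 of 5 in CHOs (32%), and 1 of 3 was lower in SMCs (24.5%) and 1 of 5 in CHOs (31.8%). Their sum in mutants was 1.12 times that in controls in ECs, 1.02 in BMSCs, 1.03 in OBs, 0.878 in SMCs, 0.899 in CHOs and 1.09 in FBs. The sum joins the kinases that switch pyruvate dehydrogenase off with the carrier and the enzyme itself. Changes of opposite meaning can thus cancel in it, and it is no measure of pyruvate entry. The carrier is a pair of MPC1 and MPC2. *Mpc1* was lower in mutant CHOs, 1.31 and 1.26 against 1.72 and 1.75 (log2 fold change -0.35 ± 0.0433, adjusted p = 1.85e-05), and in mutant SMCs, 1.65 and 1.66 against 1.98 and 2.11 (log2 fold change -0.30 ± 0.0909, adjusted p = 0.00833). In ECs it was higher, 0.778 and 0.84 against 0.597 and 0.691 (log2 fold change 0.40 ± 0.0888, adjusted p = 0.00158), as was *Mpc2*, 0.79 and 0.859 against 0.699 and 0.664 (log2 fold change 0.34 ± 0.0814, adjusted p = 0.00255). Neither gene was called in BMSCs, OBs or FBs, where their adjusted p ran from 0.177 to 0.878. The call of *Mpc1* in SMCs was lost with DESeq2 in place of edgeR, without the gene filter and without control replicate 2.

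Of the kinases that inactivate pyruvate dehydrogenase, *Pdk1* rose in CHOs, 0.486 and 0.512 against 0.366 and 0.361 (log2 fold change 0.54 ± 0.0545, adjusted p = 2.46e-06). In ECs, below the filter, *Pdk1* was 0.313 and 0.307 against 0.347 and 0.392, with both mutants under both controls. *Pdk3* was tested in BMSCs, OBs and CHOs and called in none (adjusted p from 0.135 to 0.828). *Pdk4*, a gene of fatty acid use and fasting, had its highest control levels in BMSCs and OBs, and neither was called (0.618 and 0.587 against 0.567 and 0.602, adjusted p = 0.30, and 0.37 and 0.354 against 0.382 and 0.353, adjusted p = 0.924). *Pdha1*, the catalytic subunit that these kinases phosphorylate, was tested in all 6 types and called in BMSCs alone, 0.536 and 0.529 against 0.448 and 0.498 (log2 fold change 0.24 ± 0.0897, adjusted p = 0.0496).

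**Figure D4:**
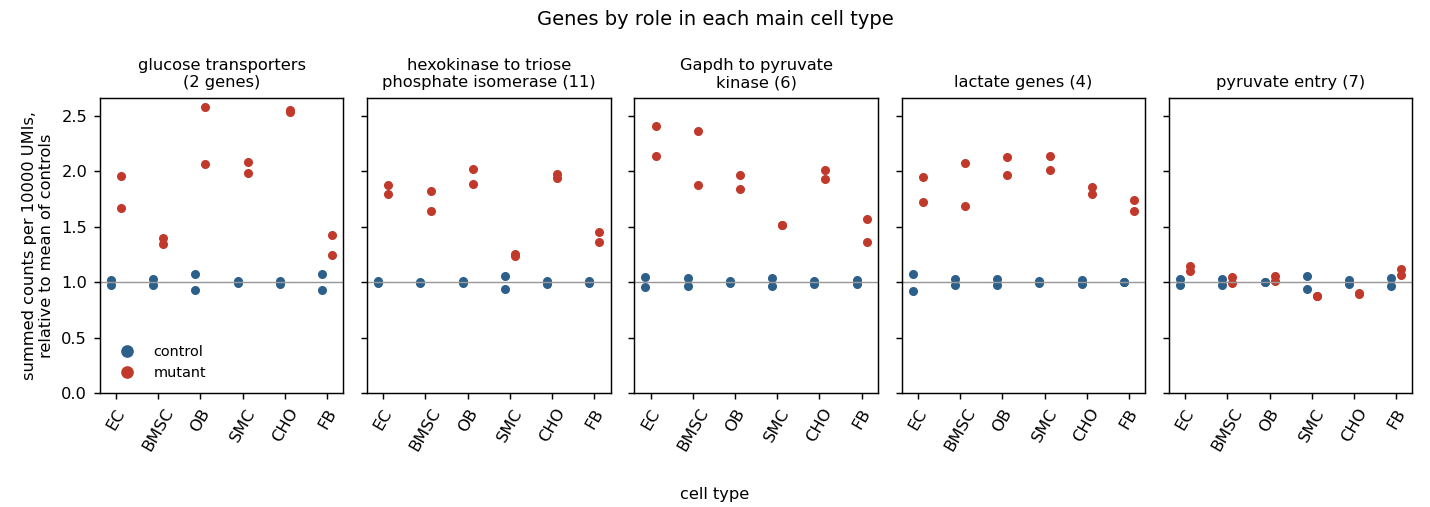
Each panel is a role, each point 1 library, and the y axis gives the summed counts per 10000 UMIs of that role's genes divided by the mean of the 2 controls of the type, so that the grey line at 1 is the control mean. Mutant points lie above the line for the first 4 roles in all 6 types and near it for the 7 pyruvate entry genes, below it in SMCs and CHOs. The last role sums genes that admit pyruvate and kinases that act against its use.

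Among controls, the members were unevenly spread over the types. A fit of the control sums alone compared each type with the mean of the other 5. In CHOs 21 of the 27 members tested were higher and 4 lower (all genes 39.8% and 39.6%), led by *Aldoc*, *Hk2* and *Slc16a3* at log2 differences of 6.92, 3.10 and 3.07. *Aldoc* had counts in 0% of control OB and SMC barcodes, 0.0259% of BMSCs, 0.0608% of ECs and 0.806% of FBs. Its value is thus a difference from counts near 0, and its size is uncertain. In FBs 15 were higher and 5 lower (29.8% and 29.2%), with *Slc16a3* at 4.77 and *Pfkp* at 2.72. In SMCs it was 11 and 7 (27.4% and 30.4%), with *Ldhb* at 2.09. The remaining types stood low: in ECs 6 were higher and 17 lower (39.7% and 41.2%), in BMSCs 6 and 19 (36.3% and 41%), and in OBs 8 and 14 (37.8% and 38.7%). Among the members that stood high in them were transporters and regulators, such as *Pdk1*, *Pfkfb3*, *Slc16a1* and *Slc2a1* in ECs (1.47, 1.38, 1.22 and 0.97), *Slc2a3* and *Pdk4* in BMSCs (2.94 and 2.29) and *Pdk4* and *Pfkfb4* in OBs (2.44 and 1.67). With 2 libraries in 6 types, no library could be left out of this fit.

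Whether the mutant effect differed between types was tested in 1 fit of all types, as the effect in a type minus the mean of the other 5. In ECs 8 of 27 members had a larger effect and 6 a smaller one (all genes 13.3% and 13.9%). *Tpi1* rose more in ECs by 0.87 on the log2 scale (adjusted p = 8.58e-07), *Pgk1* by 0.49, *Mpc1* by 0.45 and *Eno1* by 0.45. The effects on *Pdk1* (-1.17, adjusted p = 1.26e-05), *Slc16a1* (-1.03), *Slc2a3* (-0.84), *Pfkfb3* (-0.77), *Slc2a1* (-0.62) and *Pfkl* (-0.27) were smaller in ECs. Of these, *Pdk1*, *Slc16a1* and *Slc2a3* were under the filter in ECs, and *Pfkfb3* and *Slc2a1* passed it there through the mutants alone. The 8 larger effects in ECs fell to 1 without control replicate 1 and to 3 without control replicate 2, and the 6 smaller to 4 and 3, and to 3 without mutant replicate 2.

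CHOs had 7 larger and 3 smaller effects (16.2% and 13.6%), with *Ldhb* (0.55), *Aldoa* (0.54) and *Gpi1* (0.43) above and *Slc16a3* (-0.99), *Mpc1* (-0.44) and *Eno1* (-0.26) below. The 7 larger effects in CHOs fell to 2 without control replicate 1 and to 4 without control replicate 2 or mutant replicate 2, and the 3 smaller to 1 without control replicate 1 and 2 without control replicate 2. SMCs had 2 larger, *Slc2a3* (0.93) and *Ldha* (0.40), and 8 smaller (13.3% and 11.6%), among them *Pfkp* (-0.77), *Pgk1* (-0.70), *Gpi1* (-0.70) and *Tpi1* (-0.63). FBs had 0 larger and 6 smaller (0.57% and 3.16%), with *Slc16a3* (-2.31) and *Slc2a1* (-1.33) lowest. BMSCs had 2 larger, *Pkm* (0.47) and *Eno1* (0.33), and 0 smaller (3.11% and 4.7%), and OBs 2 larger, *Slc2a1* (2.20) and *Pfkl* (0.86), and 0 smaller (3.21% and 4.42%). The 2 larger effects in SMCs and the 2 in BMSCs fell to 0 without either control replicate, and those in BMSCs to 1 without mutant replicate 1. With the stricter gate BMSCs had 0 larger and 1 smaller effect, SMCs 1 larger and FBs 3 smaller, and without the gene filter BMSCs had 1 larger. The 8 smaller in SMCs fell to 5 without control replicate 2, and the 6 smaller in FBs to 3 and 2 without control replicates 1 and 2. The 44 differences over all types fell to 20 without control replicate 1 and to 21 without control replicate 2. Genes that were under the filter in a type entered this fit with few counts there, as *Slc2a1* in OBs did (9.91% of mutant and 1.67% of control barcodes), and *Pfkl* passed the filter in OBs through the mutants alone, so neither of the 2 larger effects in OBs is independent of the level. *Slc2a3* was likewise under it in SMCs. The effects on *Slc16a3* in FBs and CHOs and on *Slc2a1* in FBs were set against types where the gene was mostly under the filter.

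Within CHOs the genotypes lay farthest apart in barcodes with markers of hypertrophy (*Col10a1*, *Ihh*, *Panx3*, *Scin*, *Loxl4*), the stage at which chondrocytes swell and their matrix is invaded. The class is a range of a score and held 2093 barcodes. Of all CHO barcodes, 862 lay within 0.05 of its threshold, on either side. The summed members stood there at 88.8 and 87.8 against 31.6 and 32.9, a ratio of 2.74, and in the other CHOs at 64.1 and 62.7 against 40.6 and 41.4, a ratio of 1.55. Control hypertrophic CHOs thus lay below other control CHOs, and mutant hypertrophic CHOs above other mutant CHOs. In hypertrophic CHOs 18 of 24 members were higher and 3 lower, where 54.8% of all genes were called, and in other CHOs 17 of 23 were higher and 1 lower (53.6%).

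The hypertrophic effect minus that in other CHOs was larger for 18 of 25 members and smaller for 1, *Mpc2*, against 14.7% and 13.4% of all genes. Leaving out *Slc16a3* and *Aldoc*, which passed the filter in hypertrophic CHOs through the mutants alone, it was larger for 16 of 23 and smaller for 1. *Slc16a3* had 1.14 and 1.1 against 0.0993 and 0.123 in hypertrophic CHOs and a fitted difference from other CHOs of 1.86. *Pgk1* stood at 7.89 and 7.74 against 1.51 and 1.5 (log2 fold change 2.45 ± 0.0636, adjusted p = 3.23e-09), a difference of 1.35. *Slc2a1* had 1.84 and 1.81 against 0.312 and 0.417 (log2 fold change 2.39 ± 0.105, adjusted p = 4.95e-08), a difference of 1.22. *Aldoa* was 8.17 and 8.17 against 2.03 and 2.0, *Tpi1* 7.32 and 7.31 against 1.9 and 2.22, *Gapdh* 14.1 and 13.8 against 3.9 and 4.17 and *Ldha* 10.4 and 10.1 against 4.15 and 4.25 in these barcodes, with differences of 1.12, 1.10, 0.87 and 0.65. *Aldoc* had 0.964 and 0.959 against 0.119 and 0.0842, and without it and *Slc16a3* 16 of 22 members were higher in hypertrophic CHOs. In other CHOs only *Slc16a1* passed the filter through the mutants alone, and it was not called. The 3 members that fell in hypertrophic CHOs were *Mpc1*, 1.33 and 1.33 against 1.91 and 1.82 (log2 fold change -0.42), *Mpc2*, 0.846 and 0.789 against 0.993 and 1.1 (-0.29), and the muscle-type *Pfkm*, 0.114 and 0.112 against 0.167 and 0.161 (-0.46). *Pfkm* passed the filter there through the controls alone (13.4% of mutant and 23.8% of control barcodes), so its test is not independent of its level.

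Other values differed between genotypes in hypertrophic CHOs as well. The median share of mitochondrial UMIs was 1.22% and 1.36% in mutants against 4.19% and 4.2% in controls, and the median UMIs per barcode were 10807.5 and 10809 against 17281 and 18096. The 12 CHO markers summed to 520 and 522 against 848 and 896, while the 5 hypertrophy markers summed to 176 and 173 against 129 and 115. These did not move together: *Col10a1* stood at 161 and 158 against 115 and 101 and *Loxl4* at 4.11 and 4.19 against 1.02 and 1.09, whereas *Panx3* was lower, 2.86 and 3.13 against 5.90 and 6.17, and so was *Scin*, 1.24 and 1.17 against 1.47 and 1.53. Their part in the members' change was not tested.

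ECs with a clear lead of 1 marker list were split into arterial (aEC), bone marrow (bmEC) and metaphyseal (mpEC) cells, and other ECs entered none. These held 140, 56 and 171 of 533 EC barcodes in mutant replicate 1, and 191, 180 and 252 of 829 in control replicate 1. All ECs of mutant replicate 1 stood at 35.3, above each subclass there, so the ECs in none stood higher still. The ECs in none were not read out separately. The summed level was 23.2 and 21.1 against 15.8 and 17.6 in aECs (ratio 1.33), 28.8 and 27.6 against 16.8 and 17.9 in bmECs (1.63) and 32.7 and 35.0 against 17.8 and 18.6 in mpECs (1.86). In aECs 11 of the 15 members tested were called, all higher, against 26.1% of all genes called in either direction, in bmECs 9 of 18, all higher (11.7%), and in mpECs 14 of 18, all higher (43.6%). Leaving out *Pfkl* and *Pfkfb3* in aECs and *Slc2a1*, *Pfkfb3* and *Pdk1* in mpECs, which passed the filter through mutants alone, 9 of 13 members were higher in aECs and 13 of 15 in mpECs. In aECs 2 were called without mutant replicate 1, 6 without control replicate 1 and 5 with DESeq2, and in bmECs 2 were called without control replicate 1.

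The effect in aECs minus the mean of bmECs and mpECs was smaller for 4 of 19 members and larger for 0 (all genes 1.7% and 1.96%). These were *Eno1* (-1.04, adjusted p = 0.0161), *Aldoa* (-0.74), *Tpi1* (-0.73) and *Gapdh* (-0.63). *Eno1* stood at 1.6 and 1.04 against 1.23 and 1.12 in aECs, where the groups overlapped, and at 2.46 and 2.68 against 1.13 and 1.08 in mpECs. *Gapdh* was 4.12 and 3.78 against 2.76 and 3.38 in aECs, 5.37 and 4.87 against 2.68 and 3.02 in bmECs and 7.73 and 7.96 against 3.29 and 3.65 in mpECs.

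BMSCs with a clear lead of 1 marker list were split into diaphyseal (dpMSC) and metaphyseal (mpMSC) cells, and other BMSCs entered neither. These classes held 481 and 57 of 582 BMSC barcodes in mutant replicate 1, and 1637 and 211 of 1959 in control replicate 1. The summed members were 26.2 and 23.2 against 15.6 and 15.9 in dpMSCs (ratio 1.57) and 31.7 and 26.2 against 17.0 and 17.6 in mpMSCs (1.67). In dpMSCs 12 of the 16 members tested were called, all higher, against 40.3% of all genes in either direction, and in mpMSCs 9 of 18, all higher, against 7.06%. Without *Pfkl* and, in dpMSCs, *Pgk1*, which passed the filter through mutants alone, 10 of 14 were higher in dpMSCs and 8 of 17 in mpMSCs. *Pgk1*, *Eno1* and *Ldha* led in mpMSCs with log2 fold changes of 1.72, 1.68 and 1.40. With a stricter gate 3 were called in mpMSCs, and *Pgk1* turned to a log2 fold change of -0.12.

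**Figure D5:**
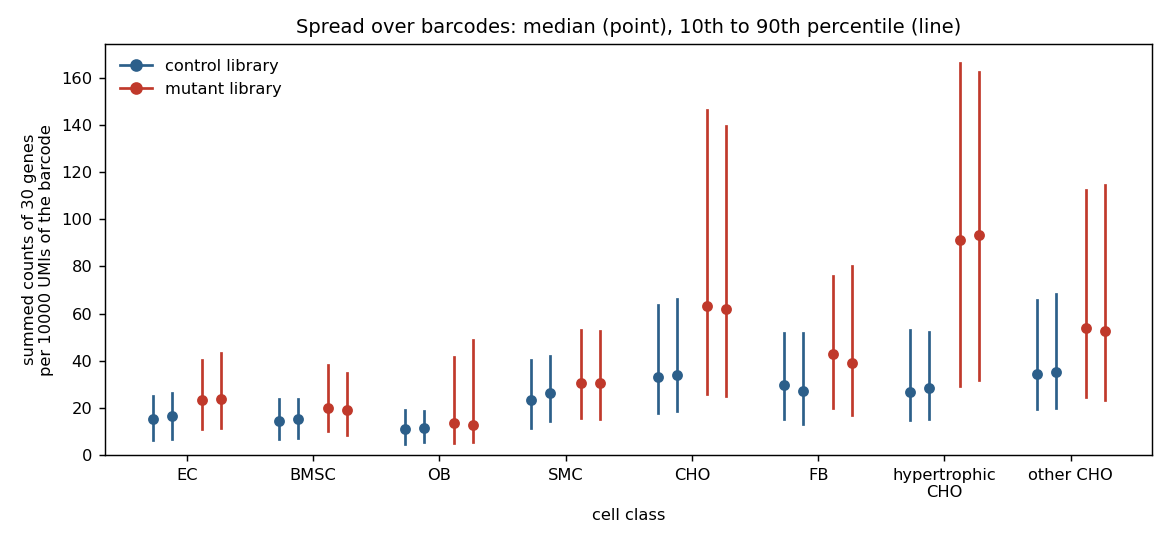
Each point is the median over the barcodes of 1 library of the summed members per 10000 UMIs of the barcode, and each line runs from the 10th to the 90th percentile. Mutant medians lie above both controls in every class drawn, by the least in OBs (13.6 and 12.6 against 11.1 and 11.4), where mainly the upper end of the line is longer (41.8 and 49.0 against 19.2 and 18.6).

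The rise was not spread over barcodes in the same way in each type. In CHOs the 10th percentile, median and 90th percentile were all higher, with ratios of means of 1.40, 1.86 and 2.20. ECs had ratios of 1.67, 1.47 and 1.62 and BMSCs 1.34, 1.31 and 1.53. In OBs the ratios were 1.06, 1.16 and 2.40, so that the genotypes differed most among the upper barcodes. When the barcodes of each library were split by UMIs into 4 groups of equal number, both mutants lay above both controls in all 4 groups of each main type. The groups were cut within each library, so depth was not matched between genotypes. In the shallowest group of OBs the median UMIs were 3348 and 3749 against 5308 and 5962. The ratio went from 1.47 in the shallowest group to 2.14 in the deepest in ECs and from 1.39 to 1.85 in BMSCs, but from 2.10 to 1.60 in OBs and from 2.25 to 1.70 in CHOs.

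Barcodes gated as blood cells, few after the depletion, were compared as a second kind of cell from the same libraries. Leukocytes numbered 28 and 35 barcodes in mutants and 113 and 99 in controls. In leukocytes the summed members stood at 35.7 and 37.2 against 37.6 and 40.3, a ratio of 0.937. Of 21 members tested 0 were higher and 0 lower (all genes 2.32% and 2.78%) with edgeR, the only tool run there. An unadjusted p under 0.05 was found for 5 members, *Mpc2*, *Hk2*, *Pfkp*, *Mpc1* and *Pdk3*, with log2 fold changes of -0.56, -0.85, -0.49, -0.48 and -1.13, and for 1190 of all 6804 genes. *Gapdh* was 7.85 and 8.86 against 7.61 and 9.23 and *Pgk1* 1.58 and 1.99 against 1.92 and 1.87 in leukocytes. The effect in leukocytes minus the mean of the 6 stromal types was smaller for 14 of 27 members and larger for 0 (2.6% and 1.64%), among them *Slc16a3* (-3.27), *Pgk1* (-1.29), *Tpi1* (-1.16) and *Gapdh* (-0.92). Members under the filter in leukocytes entered this fit too. *Slc16a3* was under the filter in ECs, BMSCs, OBs and SMCs, so its value was set against changes from low control levels there.

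In erythroid and megakaryocyte barcodes the sums were 19.1 and 22.0 against 19.4 and 19.7, and 6 of 17 members were higher and 2 lower (12.9% and 9.95%). *Eno1* (1.08 and 1.42 against 0.60 and 0.723), *Pgk1* (0.70 and 1.15 against 0.427 and 0.581), *Aldoa* (1.46 and 1.78 against 0.916 and 0.999), *Tpi1*, *Gpi1* and *Pfkl* were higher. *Slc16a1* (0.461 and 0.532 against 0.986 and 0.992) and *Mpc1* (0.765 and 0.776 against 1.32 and 1.38) were lower. Against the stromal mean, 6 of 28 members had a larger and 10 a smaller effect (15.1% and 14.6%), with *Slc16a1* (-1.44) and *Gapdh* (-0.95) among the smaller. The larger were *Slc2a1* (2.57), *Pdk4* (2.17), *Pfkp* (2.03), *Hk2* (1.99), *Pgam1* (1.80) and *Pkm* (1.21), all under the filter in these barcodes, where *Pkm* stood at 1.07 and 1.48 against 0.40 and 0.298 and *Slc2a1* at 0.0875 and 0.153 against 0.0103 and 0.00422.

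Free RNA, read from droplets with few UMIs, also held more of these transcripts in mutants: 47.5 and 48.4 per 10000 UMIs against 21.8 and 22.8. Its estimated share of a main type, from 4 genes in mutants and 8 in controls, was 1.02% to 4.68%, which adds 0.308 to 1.07 per 10000 UMIs to the sum of a type, against a difference between genotypes of 8.36 in OBs, the smallest of the main types. In aECs, with a difference of 5.5, it adds 0.469 to 0.645. Summed markers of CHOs in mutant and control ECs were 2.96 and 4.59 against 3.20 and 5.11. In BMSCs they were 8.32 and 5.46 against 4.47 and 4.66, and the 5 hypertrophy markers there 3.62 and 0.923 against 0.340 and 0.384, highest in mutant replicate 1. In SMCs the hypertrophy markers stood at 3.08 and 3.83 against 0.415 and 0.364, in ECs at 0.733 and 1.01 against 0.276 and 0.312, and in OBs at 1.06 and 1.12 against 0.495 and 0.475. The 5 dpMSC markers were 3.45 and 3.22 against 0.909 and 0.997 in ECs and 17.1 and 19.7 against 3.94 and 4.65 in SMCs. The 6 bmEC markers in ECs were lower in mutants, 8.96 and 7.98 against 22.7 and 23.1. The 9 erythroid and megakaryocyte markers were higher in mutants in every main type, for example 5.82 and 6.51 against 2.66 and 3.17 in ECs. SMCs had fewer of their own markers in mutants, 117 and 125 against 234 and 241, and so had CHOs, 463 and 459 against 653 and 656, OBs, 1145 and 1149 against 1405 and 1399, ECs, 96.1 and 97.0 against 111 and 108, and BMSCs, 275 and 304 against 328 and 328, while FBs had more, 71.6 and 68.6 against 61.4 and 58.2. Single markers went against their sum, such as *Kcnj8* in SMCs (1.11 and 1.19 against 0.440 and 0.509), *Vwf* in ECs (2.65 and 2.97 against 1.18 and 1.15) and *Ibsp* in OBs (52.7 and 60.7 against 29.8 and 32.1). The part of these in the members' changes was not tested by itself. With the free RNA subtracted, the count of called members stayed within 1.5 times in each main type. A stricter gate and removal of doublets (barcodes of 2 cells) were also run. With the stricter gate the members' median log2 fold change was 0.95 in ECs, 0.62 in BMSCs and 0.74 in OBs. In SMCs, CHOs and FBs it was 0.50, 0.89 and 0.60. Without doublets the medians were 0.91, 0.72, 0.67, 0.42, 0.89 and 0.51 in the same order.

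Lists of neighbouring pathways were set beside the members, and their counts can be read against the shares of all genes called in each type, given above. Of the 7 pentose phosphate genes, 3 of 3 tested were higher in ECs, led by *Taldo1* (log2 fold change 0.46), and 4 of 4 in BMSCs, led by *Pgd* (0.40), while 1 of 3 was higher in SMCs and 1 of 4 lower in CHOs. The 23 genes of the pyruvate dehydrogenase complex and citrate cycle, which burns pyruvate carbon, had 6 of 16 higher and 0 lower in ECs, 0 higher and 7 of 18 lower in CHOs, 0 higher and 8 of 17 lower in SMCs, and 2 higher and 3 lower of 14 in BMSCs. In SMCs 24.8% of all genes were higher and 24.5% lower, and in CHOs 32% and 31.8%. For ECs these shares were 30.1% and 30.6%, and for BMSCs 21.7% and 19.2%. *Ogdh* led the falls in CHOs (-0.36) and SMCs (-0.85). The median log2 fold change of that list was 0.08 in ECs, -0.09 in CHOs and -0.25 in SMCs.

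Of 13 other lactate and shuttle genes, 2 of 6 tested were higher in ECs, 2 of 6 in BMSCs, 2 of 5 in OBs, 1 of 5 in SMCs and 3 of 8 in CHOs, while 2 were lower in SMCs and 2 in CHOs. The falls were *Slc16a7*, which encodes the transporter MCT2 (-1.44), and *Mdh1* (-0.27) in SMCs, and *Slc25a12* (-0.41) and *Mdh1* (-0.18) in CHOs. The median log2 fold change of that list was 0.19 in ECs, -0.21 in SMCs and 0.11 in CHOs. Basigin (*Bsg*), the chaperone of MCT1 and MCT4, rose in ECs by 1.07, in CHOs by 1.47, in SMCs by 0.57, in BMSCs by 0.37 and in OBs by 0.27 on the log2 scale. Of the other glycolysis and hexose genes, few were tested, and *Pgm1*, phosphoglucomutase, rose in CHOs (0.88) and *Pgp* in ECs (0.40) and BMSCs (0.40), while *Slc2a4*, the insulin-responsive GLUT4, fell in SMCs (-0.65) and *G6pc3* in CHOs (-0.27). Among 8 oxygen sensing regulators, 5 of 6 tested were higher in CHOs and 1, *Arnt*, was lower. In ECs 2 of 5 were higher and 2 lower, in SMCs 1 of 6 higher and 2 lower, in OBs 2 of 5 and in BMSCs 1 of 5 higher and 0 lower. The medians of that list were 0.01 in ECs and -0.18 in SMCs, and *Arnt* was lower in both (-0.50 and -0.43). The prolyl hydroxylase genes *Egln1* and *Egln3*, themselves known HIF targets, had log2 fold changes of 1.74 and 2.27 in CHOs, *Egln3* 4.64 in SMCs and *Egln1* 0.52 in ECs, while *Epas1*, which encodes HIF2A, was lower in ECs (-0.47) and SMCs (-0.24) and higher in CHOs (0.66). In FBs none of the genes tested in these 5 lists was called. Genes of these lists that passed the filter through mutants alone were not set apart. A large value, such as that of *Egln3* in SMCs, may therefore not be independent of the level.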

How the data were processed

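Single-cell libraries were prepared from 2 Lats2iECKO mutants and 2 controls. The deposited tables hold expected counts: the authors trimmed reads with cutadapt 3.5 and counted UMIs with STARsolo 2.7.10a over exons and introns against GRCm39 with GENCODE annotation, sharing reads of several genes by expectation maximisation, and gave every possible barcode without filtering. Counts of both *Aldoa* rows were summed.

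Barcodes were kept from 1000 UMIs and 800 features upward, unless over 15% of their UMIs were mitochondrial, over 5% came from hemoglobin genes, or complexity was under 0.8 (5119, 5887, 6813 and 6780 for mutant and control replicates 1 and 2 each). Cell types were gated from marker genes with at least 3 markers, a score of at least 0.12 and a runner-up below 0.67 of it. Sums per library and type were rounded and tested with edgeR 4.0.16 (quasi-likelihood, TMM) in R 4.3.3. Alternatives were DESeq2 1.42.0, other size factors, no gene filter and a filter on the mean detection of both genotypes (added after seeing the data). Others were a stricter gate, barcodes kept on UMIs and features alone, subtraction of free RNA, a replicate block and leaving out each library. A further alternative was removal of scrublet doublets (205, 268, 340 and 362 barcodes taken as the highest scores, since the automatic threshold marked 0.017% in 1 library). The fit was also run on simulated counts of ECs and FBs, in which far fewer genes changed than were called in ECs. That run does not cover types in which many genes changed. Doublets stayed in the values reported.

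Named with values in every library were, per type, the called members with the lowest adjusted p, up to 8, and then others the results turned on. The members, gene lists and roles were chosen with earlier results of these data known. Blood gates, hypertrophic against other CHOs, and arterial against other ECs were compared after seeing the data. Replicates were separate biological samples, and their counts differed by more than sampling noise (chi-square per degree of freedom 4.72 and 4.49). Intervals of counting error were not used, since all comparisons were over libraries. The deviations of same-numbered libraries correlated at -0.133 to 0.101 across types, so the numbers were not taken to pair them.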

Additional observations from a re-analysis of the deposited data

Results flagged for a closer look

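The mutant effect differed between cell types for some of the 27 members tested, by a test of the difference itself against the mean of the other 5 types. It did so for 14 members in ECs, 2 in BMSCs, 2 in OBs, 10 in SMCs, 10 in CHOs and 6 in FBs. Among all genes the effect was larger in 13.3% and smaller in 13.9% in ECs, 3.11% and 4.7% in BMSCs, 3.21% and 4.42% in OBs, 13.3% and 11.6% in SMCs, 16.2% and 13.6% in CHOs, and 0.57% and 3.16% in FBs, so the counts in BMSCs, OBs and CHOs lay near these shares. Without control replicate 1 the 8 larger and 6 smaller effects in ECs became 1 and 4. *Tpi1* in ECs (0.87 larger on the log2 scale) and *Slc16a3* in FBs (-2.31) stood at the ends among genes that passed the filter in that type. *Slc16a3* was under the filter in ECs, BMSCs, OBs and SMCs, so its value in FBs was set against changes from low control levels.

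Subclasses of 1 type differed as well. The effect in hypertrophic CHOs differed from that in other CHOs for 19 of 25 members tested (14.7% of all genes larger and 13.4% smaller), among them *Slc16a3* and *Aldoc*, which passed the filter there through mutants alone and without which 16 of 23 were larger and 1 smaller, and that in aECs from the mean of bmECs and mpECs for 4 of 19 (1.96% and 1.7%). In blood cells of the same libraries it differed from the stromal mean for 14 of 27 members in leukocytes, all smaller (1.64% of all genes larger and 2.6% smaller), and for 16 of 28 in erythroid and megakaryocyte barcodes, 6 larger and 10 smaller (15.1% and 14.6%). Members under the filter in the blood cells entered these fits too.

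The genotypes also differed in counts that entered no gated class. Ungated barcodes had a mean summed level of 52.2 per 10000 UMIs in mutants and 26.9 in controls. Free RNA had 48.0 in mutants and 22.3 in controls.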

How the results depend on the processing

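Of 174 called pairs of a member and a type, 131 kept their direction and call in every alternative, and of 2254 values over these pairs 122 lost the call and 1 reversed. The reversed value was *Pgk1* in mpMSCs with the stricter gate, -0.12. Of 69 pairs not called, 20 of 887 values became called. The filter on mean detection kept every count of members called in a type within 1.5 times. With DESeq2, members called were 6 higher in FBs (10 with edgeR), 5 in aECs (11) and 0 lower in SMCs (1). The stricter gate gave 6 higher in FBs and 3 in mpMSCs (9). Without the gene filter 15 were higher and 0 lower in SMCs (9 and 1) and 2 lower in CHOs (1). Leaving out 1 library at a time gave 4 to 9 higher in FBs, with 4 without mutant replicate 1, 5 without control replicate 1 and 6 without control replicate 2. It gave 2 to 10 called in aECs (2 without mutant replicate 1), 2 to 9 in bmECs (2 without control replicate 1), 1 to 2 lower in CHOs and 0 to 1 lower in SMCs. The differences of effect between types were 44 and ran from 20 to 48. The log2 ratio of the summed members in BMSCs was 0.70, and 0.53 with the stricter gate. That in CHOs was 0.89, 0.98 with TMM-scaled library sizes and 0.84 without *Gapdh*. Medians over barcodes gave 0.56 in ECs, 0.39 in BMSCs, 0.22 in OBs and 0.30 in SMCs. Without the 9 members called higher in all 6 types the ratio was 0.44 in ECs, 0.26 in BMSCs, 0.31 in OBs, 0.53 in CHOs and 0.26 in FBs, and that of the summed members per 10000 UMIs in SMC barcodes turned from 0.43 to -0.00778. In mpMSCs the ratio of means, not on the log2 scale, went from 1.67 to 1.04. The 9 were picked by their calls in these same data, so lower ratios without them were set in advance. The cause of each change was not tested, apart from the fewer members or libraries used. With the replicate number as a block, 15 members were higher in ECs, 11 in BMSCs, 12 in OBs, 9 in SMCs, 20 in CHOs and 11 in FBs, and it changed no count by over 1.5 times. Since the deviations in BMSCs correlated negatively, the crossed pairing was added after seeing the data and gave 15, 13, 12, 9, 19 and 9 in the same order. Levels in controls could not be fitted with a library left out. Having 2 libraries per genotype limits all comparisons.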
